A study of Mus musculus with 7 samples.

Results

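The snoRNA host genes examined here are Gas5 and the Snhg genes Snhg1, Snhg3, Snhg5, Snhg6, Snhg8, Snhg12, Snhg15, Snhg18 and Snhg20, which are 10 of the 49382 genes in the deposited expression table. They were chosen by symbol, as named long noncoding host genes, with earlier results of these data known. Counts of them past a limit are therefore descriptions only. Each symbol had 1 row, and all 10 passed a filter of 2 TPM on the mean over the libraries, which kept 12909 genes. TPM (normalized transcript abundance) is the share of a library that a transcript takes, corrected for its length. Of the genes kept, 421 are annotated as noncoding RNA genes. RNA-seq had been performed on wild-type mouse embryonic fibroblasts (MEFs), primary cells from E13.5 to E14.4 embryos without head and fetal liver, which were used at passages p3 to p7 by the labels. The study's general methods give a slightly wider embryo age and passages from p4, after a sort against macrophages that the labels do not mention. There was 1 library from untreated cells and 1 from each of 6 stress conditions. Glucose depletion, glutamine depletion, hypoxia (0.1% oxygen) and endoplasmic reticulum (ER) stress (1 µM thapsigargin, a blocker of the calcium pump of the ER) lasted 10 h, whereas oxidative stress (10 µM sodium arsenite, which reacts with thiols) and osmotic stress (100 mM NaCl) lasted 3 h. The untreated library was the only reference for all 6 conditions, although they differed in duration, and time and type of stress cannot be told apart between the 10 h and 3 h conditions.

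Each condition was sequenced as a single library, which leaves the spread between cultures unknown, and no p-value is given. TPM keep no read count, so the sequencing depth behind each value is unknown. Changes against the control are differences of log2(TPM + 1), on which the changes of weakly expressed genes come out too small, and a change of more than 2-fold is one beyond 1 or -1 on that scale. All libraries had the profile of fibroblasts. The 8 fibroblast markers were between 22.6 and 4087 TPM in every library (summed level 6160 to 12781 TPM), and the 9 markers of leukocytes, endothelium, epithelium and red blood cells reached at most 2.25 TPM (summed level 1.16 to 3.50 TPM), with 1 of them, Hbb-bs, at 0 throughout.

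Small nucleolar RNAs (snoRNAs) guide the chemical modification of ribosomal and spliceosomal RNA, and in mammals most of them are cut out of the introns of host genes. The hosts studied here code for no known long protein. Their spliced exons are exported to the cytoplasm, where ribosomes read their short reading frames, and several of them are known substrates of nonsense-mediated decay (NMD), which degrades a translated RNA when a splice junction lies well downstream of the stop codon. Many hosts start, like ribosomal protein mRNAs, with a run of pyrimidines (the 5′ terminal oligopyrimidine or TOP motif), which couples their use to growth signals. Gas5 was named for its accumulation in growth-arrested cells, and the Snhg genes were numbered as snoRNA hosts.

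The starts of the host genes are shown first, because the TOP motif is the sequence feature for which such genes are known. RefSeq (GRCm38.p6) held promoter entries for 9 of the 10 genes, with 2 for Gas5, and none was used for Snhg6. Each window below has 30 bases around the annotated start, 5′ to 3′ on the strand of the gene, and capitals mark the longest run of C and T that begins within 10 bases of that start.
Gas5, upstream start, chr1:161034589-161034618, plus strand: gggcgggCCCgcgagctcgacagcccggag
Gas5, downstream start, chr1:161035154-161035183, plus strand: cgccatctcagCCTTTCggagctgtgcggc
Snhg1, chr19:8723475-8723504, plus strand: gttcttgtcggcctcaTTTTTCCTTgttcg
Snhg12, chr4:132308666-132308695, plus strand: cgttctcagTCCTTTCTCgcttcatccgcg
Snhg5, chr9:88522880-88522909, minus strand: ctgcggtgaaccgggctcgTTCTTTTacga
Snhg8, chr3:123508319-123508348, minus strand: ccgttcagaagTCTCTTTggctgcgatccg
Snhg18, chr15:32244645-32244674, minus strand: ttcccaggCCCCTCCTCTagccccgcctct
Snhg3, chr4:132353669-132353698, minus strand: tcgaccacgcctgaCTTCCgggcgttactt
Snhg15, chr11:6528743-6528772, minus strand: tgctgtgaccgtaaCTTTaagcacacgtga
Snhg20, chr11:117076771-117076800, plus strand: cagTTCCggccggaagtgcatttgcagagc

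The run was 10 bases long in Snhg18, 9 in Snhg1 and Snhg12, 7 in Snhg5 and Snhg8, 6 at the downstream start of Gas5, 5 in Snhg3, and 4 in Snhg15 and Snhg20. Of 32851 promoter entries, 3.83% had a run of at least 10 bases, 5.74% of at least 9, 13.9% of at least 7, 22.2% of at least 6 and 56.3% of at least 4. Runs of 4 bases, as in Snhg15 and Snhg20, were therefore common among all promoters, and the run of 3 bases at the upstream start of Gas5 was shared by 77.9%. These runs are read from annotated starts, and the starts used in these fibroblasts were not mapped.

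In most hosts, the annotated transcript that was read has the layout on which NMD acts. One transcript per gene was read (a basic GENCODE M21 transcript with the best support level, and the longest of these), and its first ATG was followed to the first stop. Other annotated transcripts of these genes, such as the rest of the 25 of Gas5, were not read. In Gas5-224 the spliced RNA is 502 bases long with 12 exons, and the first reading frame has 23 codons, after which 7 splice junctions lie at least 50 bases past the stop. Snhg5-201 has 1004 bases, 5 exons and a first reading frame of 3 codons, with 4 such junctions. The 5′ ends of both are printed because they show how early translation would end, with the first reading frame and its stop codon in capitals.
Gas5-224, bases 1 to 120: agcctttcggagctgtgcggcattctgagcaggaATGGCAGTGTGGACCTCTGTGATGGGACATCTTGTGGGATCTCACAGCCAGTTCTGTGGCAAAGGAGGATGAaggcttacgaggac
Snhg5-201, bases 1 to 90: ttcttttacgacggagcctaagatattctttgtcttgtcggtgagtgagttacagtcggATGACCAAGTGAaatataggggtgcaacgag

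Snhg1 (709 bases, 9 exons) had a first reading frame of 7 codons and 7 junctions past it, and Snhg12 (606 bases, 5 exons) one of 54 codons and 3 junctions. Snhg3, Snhg6, Snhg8, Snhg15 and Snhg18 had 1 junction each at that distance, after reading frames of 10, 53, 1, 35 and 29 codons. In Snhg20 the first reading frame of 42 codons ended past the last junction, so 9 of the 10 hosts had a junction at least 50 bases past the first stop. Among the 370 spliced noncoding RNA genes that passed the filter, 70% (259 genes) had one too, so the layout is common among such RNAs and not a mark of the hosts. Whether these reading frames are translated in MEFs was not measured.

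In the levels, Gas5 stood far above the other hosts. In the control library it was at 630.9 TPM, followed by Snhg1 at 113 TPM, Snhg6 at 104 TPM, Snhg12 at 73.7 TPM and Snhg8 at 66.4 TPM. Gas5 was the highest, Snhg1 the second and Snhg20 the lowest of the 10 genes in all 7 libraries, and the order of the genes between them varied. With single libraries, it cannot be said which neighbours in this order differ beyond their spread. Together the 10 genes made up 0.115% of the control library (1150 TPM) and 0.469% of the ER stress library (4686 TPM), a ratio of 4.07. Gas5 contributed between 47.3% and 60.3% of this sum in each library, and the ratio without Gas5 was 3.89. Glutamine depletion gave a summed level of 1565 TPM (1.36 times the control), and the other 4 conditions lay between 1022 and 1318 TPM. In bulk RNA, a change in the number of cells that express a gene and a change in RNA per cell cannot be told apart.

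**Figure D1:**
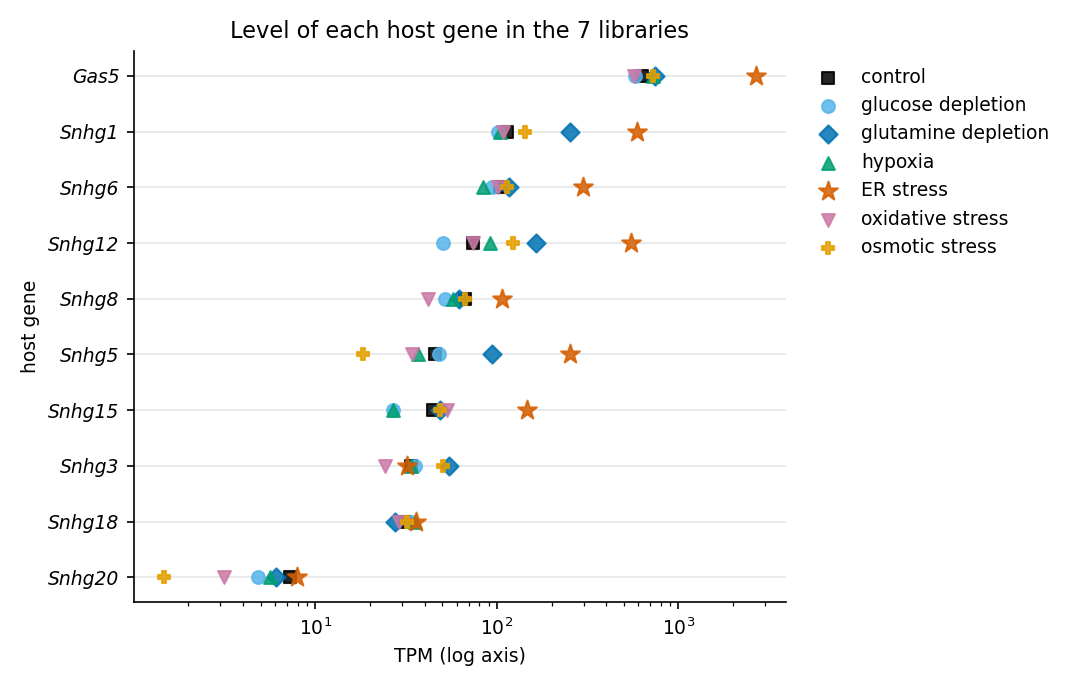
Level of each of the 10 snoRNA host genes (TPM, log axis) in the 7 MEF libraries, 1 point per library. For 6 genes the ER stress library lies far to the right of the other 6 libraries, Gas5 reaching 2669 TPM, whereas Snhg18 stays between 27.4 and 35.7 TPM.

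ER stress changed the hosts most. It raised 6 of the 10 by more than 2-fold (Gas5, Snhg1, Snhg5, Snhg6, Snhg12 and Snhg15) and lowered 0, while 8.60% of all 12909 genes were higher and 11.0% lower by that much, and 13.5% of the 421 noncoding RNA genes were higher. The median log2 change of the 10 hosts was 1.60 (-0.07 to 2.88). Over all genes it was 0, with the middle 50% between -0.48 and 0.44, and over noncoding RNA genes it was -0.04. The 6 hosts that rose lay between the 96.2 and the 98.5 percentile of all genes by change. In the same library all 8 fibroblast markers were lower than in the control (median log2 change -0.86), 2 of them by more than 2-fold (Col3a1, -2.07, and Pdgfrb, -1.15), and the part of such shifts in the host levels was not tested.

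Snhg12, a host of H/ACA and C/D snoRNAs on chromosome 4 (ENSMUSG00000086290, chr4:132308623-132311024, plus strand, GRCm38), had the largest change. Its level was 73.7 TPM in control cells, 50.5 in glucose depletion, 164 in glutamine depletion, 91.5 in hypoxia, 548 in ER stress, 73.7 in oxidative stress and 122 TPM in osmotic stress. The ER stress library was 7.44 times the control (log2 change 2.88) and 3.34 times the next highest library, which was glutamine depletion (log2 change 1.14). The lowest and highest levels of Snhg12 differed by 10.9 times.

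Snhg5, a host of the U50 snoRNAs (ENSMUSG00000097195, chr9:88521050-88522929, minus strand), spanned the widest range of all members. It was at 45.7 TPM in the control, 48.3 without glucose, 93.8 without glutamine, 36.9 in hypoxia, 254 in ER stress, 33.9 in oxidative stress and 18.3 TPM in osmotic stress. Its level in ER stress was 5.57 times the control (log2 change 2.45) and in glutamine depletion 2.05 times (1.02), just past the 2-fold rule. In osmotic stress the control was 2.50 times higher (log2 change -1.28), so that its highest and lowest libraries were 13.9-fold apart.

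Snhg1 (ENSMUSG00000108414, chr19:8723475-8726443, plus strand), the host of a cluster of C/D snoRNAs once described as the U22 host gene, was at 113 TPM in the control, 102 in glucose depletion, 252 in glutamine depletion, 104 in hypoxia, 588 in ER stress, 107 in oxidative stress and 143 TPM in osmotic stress. ER stress gave 5.20 times the control (log2 change 2.37) and glutamine depletion 2.23 times (1.15). The other 4 libraries lay between log2 changes of -0.15 and 0.34.

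Gas5 (ENSMUSG00000053332, chr1:161034422-161038539, plus strand), with C/D snoRNAs in most of its introns, had 630.9 TPM in the control, 573.8 in glucose depletion, 740.2 in glutamine depletion, 721.9 in hypoxia, 2669 in ER stress, 567.0 in oxidative stress and 721.9 TPM in osmotic stress. ER stress alone stood apart, at 4.23 times the control (log2 change 2.08) and 3.61 times the next highest library. The other 5 conditions were within log2 changes of -0.15 and 0.23, glutamine depletion included (0.23).

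Snhg15 (ENSMUSG00000085156, chr11:6525591-6528760, minus strand), a short-lived host RNA with 1 annotated snoRNA, had 44.4 TPM without stress and 146 TPM in ER stress, a ratio of 3.30 (log2 change 1.70). It was at 26.8 TPM in both glucose depletion and hypoxia (log2 changes of -0.71), at 48.5 in glutamine depletion, 53.2 in oxidative stress and 48.4 TPM in osmotic stress. These levels in glucose depletion and hypoxia were the lowest of the gene but within 2-fold of the control. Snhg6 (ENSMUSG00000098234, chr1:9941959-9944118, minus strand), the host of Snord87, was at 104 TPM in the control, 94.3 in glucose depletion, 117 in glutamine depletion, 83.9 in hypoxia, 298 in ER stress, 102 in oxidative stress and 114 TPM in osmotic stress. Its ratio of 2.86 in ER stress (log2 change 1.51) was the smallest among the 6 genes that rose.

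The other 4 hosts were within 2-fold of the control in ER stress. Snhg8 (ENSMUSG00000104960, chr3:123507552-123508404, minus strand), the host of Snora24, was at 66.4 TPM in the control, 52.0 in glucose depletion, 61.6 in glutamine depletion, 57.4 in hypoxia, 107 in ER stress, 41.5 in oxidative stress and 66.6 TPM in osmotic stress. Its ER stress level was its highest, at 1.62 times the control (log2 change 0.69). Snhg3 (ENSMUSG00000085241, chr4:132348014-132353686, minus strand), the host of the U17 snoRNAs Snora73a and Snora73b, was at 33.6 TPM in the control, 35.4 without glucose, 54.8 without glutamine, 33.8 in hypoxia, 32.0 in ER stress, 24.3 in oxidative stress and 50.6 TPM in osmotic stress. It was the only member with a negative log2 change in ER stress (-0.07), and its highest levels were in glutamine depletion (0.69) and osmotic stress (0.58).

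Snhg18 (ENSMUSG00000096956, chr15:32240565-32244662, minus strand), the host of Snord123, had 31.1 TPM in the control, 33.7 in glucose depletion, 27.4 in glutamine depletion, 35.3 in hypoxia, 35.7 in ER stress, 28.8 in oxidative stress and 32.1 TPM in osmotic stress. It varied least of all members, by 1.30 times between its lowest and highest library, and its start had the longest pyrimidine run. Snhg20 (ENSMUSG00000086859, chr11:117076008-117078955, plus strand), the host of a small Cajal body RNA, had 7.24 TPM in the control, 4.83 in glucose depletion, 6.09 in glutamine depletion, 5.66 in hypoxia, 7.91 in ER stress, 3.14 in oxidative stress and 1.46 TPM in osmotic stress. Its lowest levels were thus in the 2 conditions of 3 h, with log2 changes of -0.99 in oxidative stress and -1.74 in osmotic stress.

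**Figure D2:**
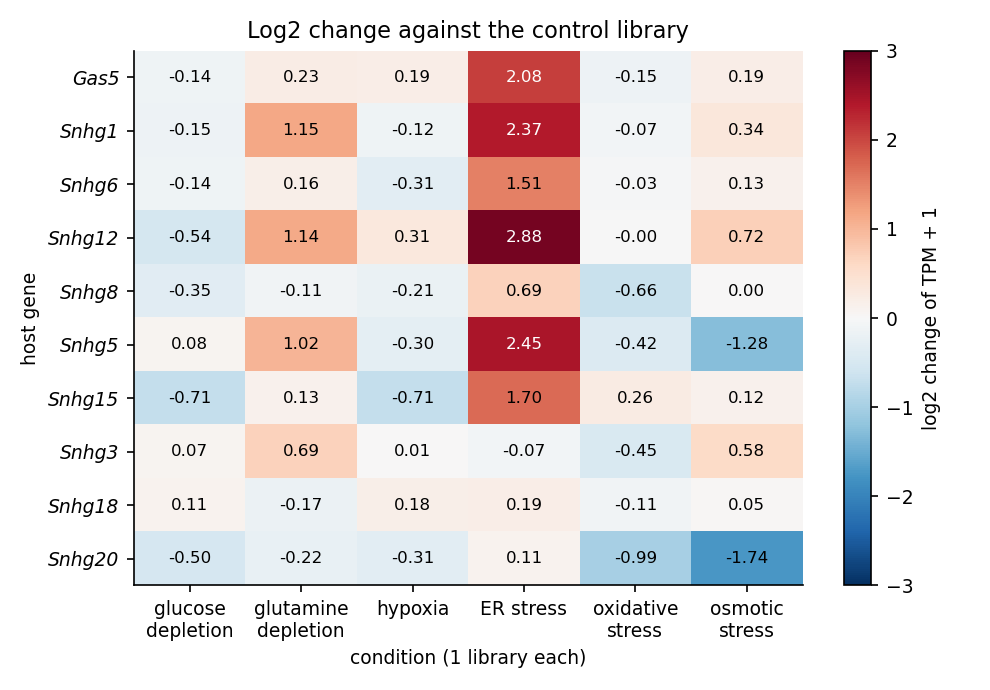
Log2 change of each host gene (rows) in each condition (columns) against the control library, on the log2(TPM + 1) scale. The ER stress column holds the 6 highest values of the map, from 1.51 to 2.88, and the lowest value is that of Snhg20 in osmotic stress, -1.74.

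Glutamine depletion raised 3 of the 10 hosts by more than 2-fold, namely Snhg1 (1.15), Snhg12 (1.14) and Snhg5 (1.02), and lowered 0, while 3.21% of all genes were higher and 3.21% lower by that much. The median of the 10 hosts was 0.20 (-0.22 to 1.15), beside -0.09 over all genes. In ER stress, which was compared with the same control library, these genes had log2 changes of 2.37, 2.88 and 2.45. Among noncoding RNA genes, 5.70% were higher by more than 2-fold in glutamine depletion. Gas5 (0.23), Snhg6 (0.16) and Snhg15 (0.13), which rose in ER stress, were close to the control here.

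Glucose depletion moved no host by more than 2-fold (0 of 10), beside 1.83% of all genes higher and 2.41% lower. The median was -0.14 (-0.71 to 0.11), beside -0.02 over all genes, and the lowest values were those of Snhg15 (-0.71) and Snhg12 (-0.54). Hypoxia moved 0 of 10 as well, beside 3.57% of all genes higher and 2.64% lower. The median was -0.16 (-0.71 to 0.31), beside -0.05 over all genes. Few genes passed 2-fold in either condition, so a count of 0 among 10 hosts does not set them apart from other genes.

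Oxidative stress moved 0 of 10 hosts by more than 2-fold, beside 3.94% of all genes higher and 4.85% lower. The median was -0.13 (-0.99 to 0.26), and all genes had a median of -0.16, so the 9 negative values of the hosts lay around the general shift of that library. Relative to the median of all genes, the median of the hosts was 0.03. Snhg20 was just inside the limit, at -0.99. Osmotic stress lowered 2 of 10, Snhg20 (-1.74) and Snhg5 (-1.28), and raised 0, beside 8.76% of all genes lower and 3.08% higher. Among noncoding RNA genes, 15.7% were lower by that much, and Snhg20 was at only 1.46 TPM in this library. The other 8 hosts had log2 changes above 0, up to 0.72 in Snhg12, and the median was 0.12 beside -0.12 over all genes.

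The promoters of the hosts were searched on both strands for 9 motifs, from 250 bases before to 50 bases after the annotated start. The cAMP response element TGACGTCA, a binding site of the CREB and ATF families, was found in Gas5 and Snhg15, in 1.79% of all promoter entries and in 3.1% of those of genes that passed the filter. In Gas5 it begins at base -46 relative to the downstream start, and in Snhg15 at base -88. The Gas5 promoter (chr1:161034916-161035215, plus strand, GRCm38.p6) is printed with this element in capitals.
Gas5 promoter: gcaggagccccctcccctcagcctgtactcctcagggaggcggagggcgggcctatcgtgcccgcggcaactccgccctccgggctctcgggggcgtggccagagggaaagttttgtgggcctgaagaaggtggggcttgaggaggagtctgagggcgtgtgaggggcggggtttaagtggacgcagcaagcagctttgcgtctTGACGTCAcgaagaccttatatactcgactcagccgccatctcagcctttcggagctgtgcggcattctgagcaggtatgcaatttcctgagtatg

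The TATA sequence TATAAA was found in Snhg1, Snhg3, Snhg5 and Snhg8, in 13.6% of all promoter entries and in 6.98% of those of genes that passed the filter. It begins at base -30 in Snhg8, -23 in Snhg5 and 23 in Snhg3. In Snhg1 it is read on the opposite strand, at base -29. The Snhg1 promoter (chr19:8723237-8723536, plus strand, GRCm38.p6) is printed because it spans the gap between the starts of Snhg1 and Slc3a2, a gene transcribed the other way, with the first bases of both, and capitals mark the TATA match as it reads on the strand of Snhg1.
Snhg1 promoter: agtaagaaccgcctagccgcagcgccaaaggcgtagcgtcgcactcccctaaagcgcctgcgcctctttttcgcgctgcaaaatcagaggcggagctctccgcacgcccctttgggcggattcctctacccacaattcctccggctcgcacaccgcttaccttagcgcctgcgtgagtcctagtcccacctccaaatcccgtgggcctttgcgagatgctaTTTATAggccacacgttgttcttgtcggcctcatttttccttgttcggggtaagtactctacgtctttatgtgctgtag

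The other motifs were the CCAAT enhancer binding and ATF4 composite TGATGNAAN (found in 0 of the 9 hosts with a promoter entry, 3.95% of all entries and 2.08% of those of genes that passed the filter), the ER stress element (CCAAT and CCACG with 9 bases between them, 0, 0.119% and 0.138%), the XBP1 core TGACGTGG (0, 0.676% and 0.887%), the E-box CACGTG (1, Snhg15, 7.15% and 10.2%), the hypoxia core GCGTG (8, 32.4% and 51.3%), the antioxidant element TGACNNNGC (2, Snhg8 and Snhg18, 12.4% and 14.2%) and TGACG, the first part of TGACGTCA (5, which include both genes with the full element, 20.8% and 31.5%). Only the letters given were searched, so other forms of a motif, such as of the hypoxia core, were not counted. A match describes the letters of the window, and binding was not measured.

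Several hosts overlap another gene or start close to one, and libraries were quantified without use of strand. Slc3a2, the heavy chain of amino acid transporters at the plasma membrane, starts 106 bases from Snhg1 on the opposite strand without overlap. It was at 201 TPM in the control, 189 in glucose depletion, 301 in glutamine depletion, 218 in hypoxia, 1454 in ER stress, 298 in oxidative stress and 184 TPM in osmotic stress. In ER stress both genes of this pair rose, Slc3a2 by 7.23 times and Snhg1 by 5.20 times, whereas in glutamine depletion Snhg1 passed 2-fold (1.15) and Slc3a2 did not (0.58).

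Zbtb37, a zinc finger gene that overlaps Gas5 on the opposite strand, had 3.87 TPM without stress and reached 5.77 TPM under ER stress (0.47). Rcc1, the nucleotide exchange factor of Ran, overlaps Snhg3 on the same strand, and had 36.0 TPM in the control, 64.3 in ER stress (0.82) and 19.9 TPM in hypoxia (-0.82). Reads from the overlap could be given to either gene, so the levels of both are less certain. Gm17300, a noncoding RNA antisense to Snhg3, went from 6.89 to 6.38 TPM in ER stress. Sema5a, a semaphorin that starts 148 bases from Snhg18 on the opposite strand, was at 3.04 and 4.48 TPM (0.44), and Mcmdc2, which overlaps Snhg6, was under 1 TPM in every library. Slc3a2 was thus the only one of these 6 neighbours that changed by more than 2-fold in ER stress.

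**Figure D3:**
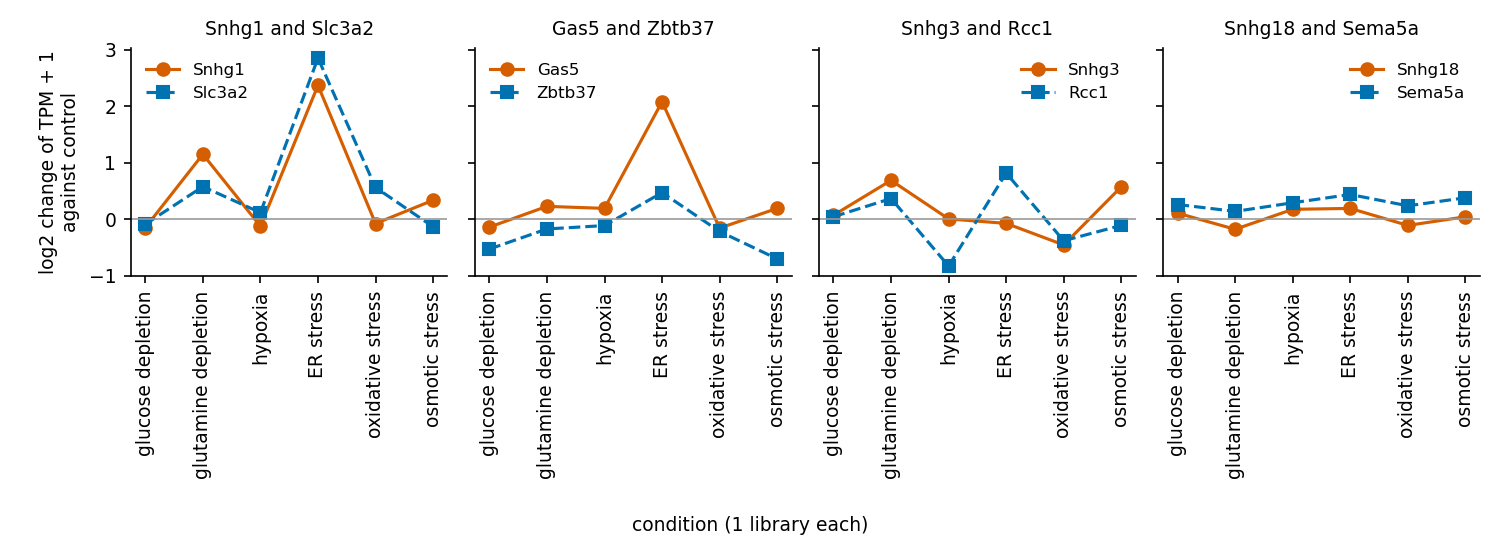
Log2 change against the control library of 4 host genes and a neighbouring gene each in the 6 conditions. The scale is log2(TPM + 1), and lines only join the points of a gene. Snhg1 and Slc3a2 are both highest in ER stress (2.37 and 2.85). Gas5 is highest there too (2.08), whereas Zbtb37 stays between -0.70 and 0.47.

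The snoRNAs themselves are hardly covered by these libraries, which were made from polyadenylated RNA. The annotation places 32 snoRNA or small Cajal body RNA rows of the table inside the 10 hosts on the same strand, with lengths of 60 to 205 bases. Of these, 16 were listed at 0 TPM in all 7 libraries, 6 were above 0 in exactly 1 library and 0 in all of them. Gas5 holds 10 of the rows, 7 of them at 0 throughout, and Snhg1 holds 8, with 6 at 0. The values above 0 were scattered over the libraries. Snord87 in Snhg6 was at 63.8 TPM in the control and listed at 0 in ER stress, where its host was at 298 TPM. Snord99 in Snhg12 was listed at 0 in 6 libraries and at 28.2 TPM in ER stress. Snord123 in Snhg18 was above 0 in 6 libraries, at 30.1 TPM without stress and 52.8 TPM under ER stress. For such short features TPM rest on few reads, and no level of mature snoRNA is read from them.

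Other genes of the snoRNA and decay pathways were described in the same way. Of 12 other noncoding hosts, 9 passed the filter, and in ER stress 4 of these rose and 2 fell by more than 2-fold (median 0.92). Snhg17 went from 18.4 to 115 TPM (log2 change 2.58), Zfas1 from 81.4 to 451 TPM (2.46), Snhg14 from 3.35 to 13.8 TPM (1.77) and Epb41l4aos from 45.1 to 112 TPM (1.29). Snhg9 fell from 13.9 to 3.06 TPM (-1.87) and Rian, an imprinted RNA that hosts a large C/D cluster, from 264 to 108 TPM (-1.28). The rise was therefore present among other hosts but not in all.

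Hosts that encode proteins moved less in ER stress. Among 17 that encode ribosomal proteins, which carry the TOP motif as a class, 1 rose by more than 2-fold, Rpl12 (from 52.8 to 207 TPM, 1.95), and the median was 0.15. The lowest was Rpl21 (-0.45). In the control, the rows of Rpl12 (52.8 TPM) and Rps12 (105 TPM) lay far below most of this list, such as Rpl3 (1372 TPM). Whether these rows hold the main mRNA of the gene was not tested. Among 14 that encode other proteins, 4 rose (median 0.40), namely Wdr43 (1.21) and nucleolin Ncl (1.21), both ribosome assembly proteins, and the snoRNP proteins Nop58 (1.14) and Dkc1 (1.14). The lowest was the chaperone Hspa8 (-0.32). Of 15 snoRNP proteins and assembly factors, 2 rose, again Nop58 and Dkc1, with a median of 0.75.

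Of the 17 factors of NMD, 1 rose by more than 2-fold in ER stress, Nbas (from 12.5 to 36.3 TPM, 1.46), which also acts in transport between ER and Golgi, and the median was 0.23. The helicase Upf1 at the centre of the pathway had 36.8 TPM without stress and 36.7 TPM under ER stress, and the lowest was Upf3b (-0.66). Within 2-fold but above the control were Smg9 (0.81), the kinase Smg1 of Upf1 (0.73), Dhx34 (0.69), Smg8 (0.65) and Smg6 (0.50). Protein activity and RNA decay were not measured.

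Stress mRNAs that are known NMD substrates, most of which are also induced through eIF2α phosphorylation, changed more. Of 7 such genes, 4 rose by more than 2-fold in ER stress (median 1.48), with Atf3 from 3.02 to 112 TPM (4.81), Ddit3 from 136 to 1870 TPM (3.77), Gadd45a from 30.3 to 286 TPM (3.20) and Atf4 from 276 to 773 TPM (1.48), while Gadd45b was the lowest (-0.71). Of 10 genes of the integrated stress response, 5 rose, led by the phosphatase subunit Ppp1r15a (3.70), Chac1 (3.05) and Trib3 (2.54), with Asns (1.16) and the kinase Eif2ak3 (1.03), and the kinase Eif2ak2 fell (-1.04). Transcription, translation and decay cannot be told apart in these levels.

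**Figure D4:**
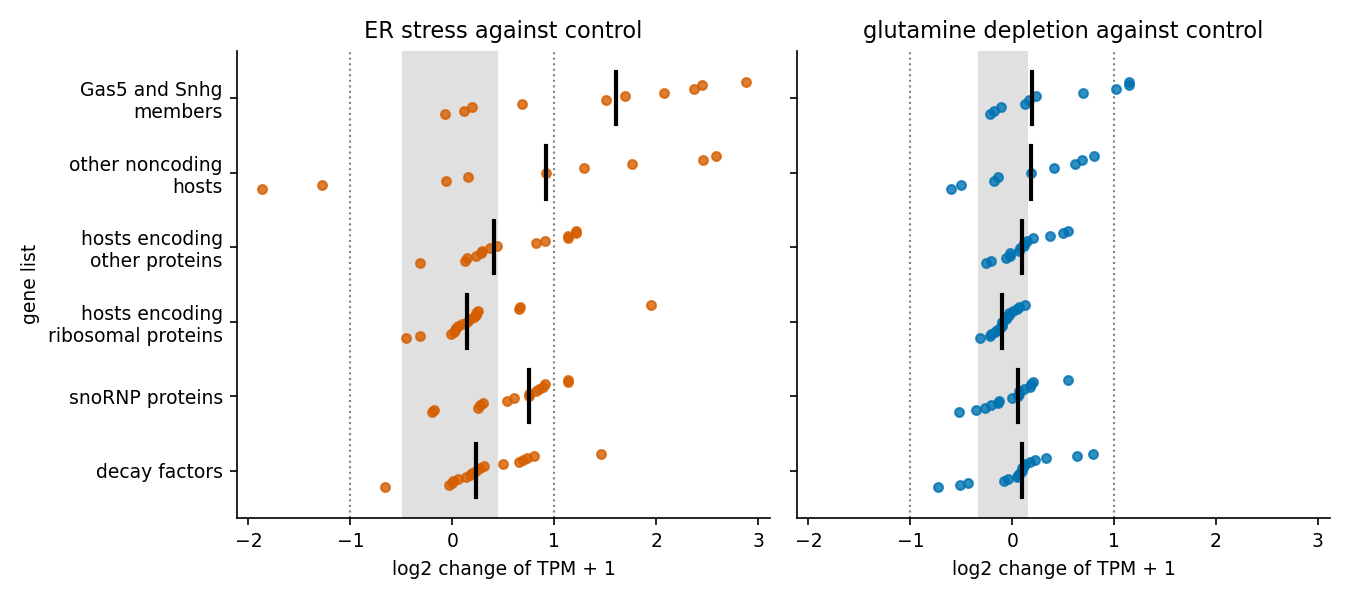
Log2 change of single genes (points) by list in ER stress and glutamine depletion, with the median of each list (black bar), the middle 50% of all 12909 genes (grey band) and the limits of 2-fold (dotted lines). In ER stress the median of the 10 hosts is 1.60 and that of 17 hosts encoding ribosomal proteins 0.15, and in glutamine depletion they are 0.20 and -0.10.

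In glutamine depletion 0 genes of the other host, snoRNP and NMD lists passed 2-fold in either direction. The medians were 0.19 for the other noncoding hosts, -0.10 for hosts encoding ribosomal proteins, 0.10 for those encoding other proteins, 0.05 for snoRNP proteins and 0.09 for NMD factors. Among the stress mRNAs Atf3 (2.47) and Gadd45a (1.52) rose, as did Chac1 (1.69) among the genes of the integrated stress response. Thus Snhg1, Snhg5 and Snhg12 were the only noncoding hosts past 2-fold in this condition among the 19 that passed the filter.

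In hypoxia, where all 10 hosts were within 2-fold, Nhp2 (-1.26) and Dkc1 (-1.002), both subunits of H/ACA snoRNPs, fell, and the median of the 15 snoRNP genes was -0.54. Among the other noncoding hosts Snhg14 rose (1.62), Snhg9 (-1.22) and Snhg17 (-1.03) fell, and Snhg7, at 8.93 TPM in the control, was listed at 0, as it was in glucose depletion. Tbl2 (1.70) rose among the stress mRNAs and Trib3 (1.18) in the integrated stress response. In glucose depletion 0 other genes of these lists passed 2-fold.

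In oxidative stress Snhg14 (3.15), the ribosomal protein host Rps12 (1.31) and Hspa8 (1.04) rose, and so did Atf3 (4.47), Gadd45a (1.47) and Chac1 (1.38), while 0 of the 10 hosts did. In osmotic stress Dancr (-1.83) and Wdr43 (-1.14) fell among the other hosts. There the stress genes were split, with Ppp1r15a (1.96) and Atf3 (1.82) higher, and Chac1 (-2.36), Trib3 (-1.998), Ddit3 (-1.46) and Sesn2 (-1.24) lower.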

How the data were processed

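RNA-seq libraries (stranded, polyadenylated RNA, paired-end) of 7 MEF cultures, 1 per condition, were grouped by their treatment labels. The authors deposited TPM, estimated with Kallisto 0.43.1 at default settings on GRCm38 cDNA with the values of a gene's transcripts added up. TPM hold no read counts, so depth is unknown and no count test or interval was possible. From these, log2(TPM + 1) differences against the control library were computed, with the study's 2-fold rule and a filter of a mean of at least 2 TPM. The members and all gene lists were chosen with earlier results of these data known. All 10 members are named in every library. Of the other lists, genes past 2-fold and those with extreme values are named, besides neighbours starting within 2 kb or overlapping, snoRNA rows, and the 5 genes with the most similar profile. Upf1, Smg1, Smg6, Smg8, Smg9 and Dhx34 were named outside that rule, after their values were seen. A value of the NMD list that the rule asks for is not reported here. Gene positions and transcripts came from GENCODE M21 (GRCm38, all 10 members matched), and promoters from RefSeq GRCm38.p6. Alternatives were other pseudocounts, scalings, filters, references and fold limits. Scripts were tested on simulated data, with numpy 2.4.6 and pandas 2.3.3 in Python 3.11.15, and figures were drawn with matplotlib 3.10.9.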

Additional observations from a re-analysis of the deposited data

How the results depend on the processing

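Of 420 log2 changes of single members under alternatives, 415 kept their side of 2-fold. Among those past 2-fold in the main setting, 0 reversed their sign. Smaller changes could switch sign, such as that of Gas5 in oxidative stress, from -0.15 to 0.002 when centred on the median of all genes. ER stress raised 6 members under every scaling, pseudocount, filter and reference tried, 7 at a 1.5-fold limit (19.0% of all genes) and 5 at a 3-fold limit (3.39%). In glutamine depletion 3 rose, but 0 at 3-fold (1.61% of all genes) and 4 at 1.5-fold (7.47%). Snhg5 was at 0.96 there with a pseudocount of 5 TPM, and Snhg12 at 0.83 with the median of the 7 libraries as the reference. In oxidative stress the count lowered was 1 with a pseudocount of 0.1 TPM (Snhg20, -1.18), 1 with the library total set by protein-coding genes (Snhg20, -1.02) and 2 at 1.5-fold (16.2% of all genes). In osmotic stress it was 1 with a pseudocount of 5 TPM (Snhg20, -0.92), 1 at 3-fold (3.37%) and 1 with a mean of at least 10 TPM, and 1 member was raised at 1.5-fold (6.56%). At 1.5-fold, 1 member each was lowered in glucose depletion (6.23% of all genes) and hypoxia (8.10%). Single libraries and unknown depth limit every value, most of all those of Snhg20. No paired analysis was possible because each group holds 1 library.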

Other observations

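The genes whose profile over the 7 libraries was most like the mean profile of the 10 host genes were Dusp9 (Pearson r = 0.995), Cd40 (0.994), Vps37c (0.988), Eif1a (0.986) and Hbs1l (0.980), of 6747 genes that varied by at least 1 log2 unit. These correlations are descriptions over 7 single libraries, and 255 genes had r above 0.9. The ER stress library was the highest for all 5 genes, which follows from their choice by likeness to a profile that peaked there. Their log2 changes in ER stress were 1.02 for Dusp9, a phosphatase of MAP kinases, 1.74 for Cd40, a receptor of the TNF receptor family, 0.97 for Vps37c, a subunit of the ESCRT-I complex, 1.14 for Eif1a, a translation initiation factor, and 0.99 for Hbs1l, which acts in the rescue of stalled ribosomes. Dusp9 was at 2.94 TPM and Cd40 at 1.35 TPM in the control, so both rest on low levels.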
